A study of Mus musculus with 5 samples.

Results

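The replication-dependent histone cluster genes encode the linker histone H1 and the core histones H2A, H2B, H3 and H4, and they lie in gene clusters named Hist1 to Hist4. They were taken as every gene with an older mouse symbol that starts with Hist1h, Hist2h, Hist3h or Hist4h, 70 of the 55250 genes with a usable symbol. The deposited table gives 9 of them under such a symbol and 61 under newer symbols (Hist1h1c is H1f2, for example), which were matched through the RefSeq list of synonyms. There were 6 H1, 20 H2A, 19 H2B, 12 H3 and 13 H4 genes, of which 67 were annotated as protein-coding and 3 as pseudogenes. Cluster Hist1 on chromosome 13 holds 56 of them, Hist2 on chromosome 3 holds 10, Hist3 on chromosome 11 holds 3 and Hist4 on chromosome 6 holds 1.

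RNA was measured in cells labelled as sorted PMN-MDSCs (polymorphonuclear myeloid-derived suppressor cells, immature neutrophil-like cells) of wild-type mice, in 3 libraries of cells from lung (replicates 1, 2 and 3) and 2 libraries of cells from tumor (replicates 2 and 3). In the tumor libraries the markers go against that name: epithelial genes summed to 7139 and 7194 TPM, neutrophil genes to 1320 and 4349 TPM. All are labelled WT, and strain, age, tumor model, sort markers and animals per library are not stated in the labels. The values are TPM, a length-corrected share of all transcripts in a library. Values are given below for lung replicates 1, 2 and 3 and then tumor replicates 2 and 3. Replicates are separate libraries of unstated origin, so the p-values reflect variation between libraries that can be technical.

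In each nucleosome, DNA is wrapped around a core of H2A, H2B, H3 and H4, while H1 binds the linker DNA where it enters and leaves. The cluster genes are transcribed in bulk during S phase, under the coactivator NPAT, when new DNA must be packaged. Most of their mRNAs have no poly(A) tail and end instead just after a short stem-loop that the protein SLBP binds for processing, export, translation and decay. Neutrophils are mature, non-dividing cells, and they can release histone-coated chromatin as extracellular traps.

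The stem-loop marks these mRNAs as a class, so the sites of members with high values are shown from GENCODE M21 transcripts. Capitals mark the 16-base stem-loop, with 5 bases on each side.
H1f2: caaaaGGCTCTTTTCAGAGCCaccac
H2ac19: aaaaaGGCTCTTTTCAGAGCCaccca
H2bc8: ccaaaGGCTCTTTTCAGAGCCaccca
H4c9: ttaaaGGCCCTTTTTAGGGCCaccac
Hist1h4n: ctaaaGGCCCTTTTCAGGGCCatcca

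A stem-loop was found in annotated transcripts of 46 of the 70 genes, and its stem differed between H4 and the other families. The 5′ strand of the stem read ggctct in all 34 H1, H2A, H2B and H3 genes with a site. It read ggccct in 10 H4 genes and ggtcct in 2, H4c2 and H4c11. The loop tttc was the most frequent, and 26 genes shared one 16-base sequence, that of H1f2 above. No site in the other 24 genes says only that these letters are not in their annotated transcripts, many of which stop at the coding end.

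Promoters were read from RefSeq (GRCm38.p6) in windows from 250 bases before to 50 after each gene start, 63 windows for 62 genes. Motifs were searched by exact letters on both strands. CCAAT, a core promoter element of many genes, was in 85.7% of the histone windows and in 37.4% of all 32851 windows. The TATA box letters TATAAA were in 55.6% against 13.6%. The octamer ATTTGCAT, bound by POU factors such as OCT1, was in 22.2% against 1.74%. All H1, H2A, H2B and H3 windows held CCAAT, 51 in all, but 3 of 12 H4 windows did. The octamer was in 38.9% of H2A and 41.2% of H2B windows and in none of the 6 H1, 10 H3 and 12 H4 windows. A match is a description of the letters and not a bound site.

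The 250 bases before the start are printed for 3 genes that show these differences, with motif letters in capitals. The window of H2ac6 is the stretch between H2ac6 and H2bc4, which are transcribed away from each other, H4c9 is an H4 gene without CCAAT, and H3c11 is the one gene called higher in tumor among the 24 that were tested with a filter on low values.
H2ac6, chr13:23683960-23684209, minus strand: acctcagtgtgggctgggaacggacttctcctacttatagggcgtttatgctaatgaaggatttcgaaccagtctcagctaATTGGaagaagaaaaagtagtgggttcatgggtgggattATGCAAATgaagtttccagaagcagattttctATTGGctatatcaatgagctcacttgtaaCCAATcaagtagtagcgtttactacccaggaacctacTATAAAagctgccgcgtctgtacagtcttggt
H4c9, chr13:22041363-22041612, minus strand: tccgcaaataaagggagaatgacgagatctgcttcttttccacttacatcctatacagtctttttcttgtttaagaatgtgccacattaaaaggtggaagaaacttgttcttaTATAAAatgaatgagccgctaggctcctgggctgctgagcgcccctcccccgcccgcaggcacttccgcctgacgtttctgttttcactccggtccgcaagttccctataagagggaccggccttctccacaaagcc
H3c11, chr13:21783398-21783647, minus strand: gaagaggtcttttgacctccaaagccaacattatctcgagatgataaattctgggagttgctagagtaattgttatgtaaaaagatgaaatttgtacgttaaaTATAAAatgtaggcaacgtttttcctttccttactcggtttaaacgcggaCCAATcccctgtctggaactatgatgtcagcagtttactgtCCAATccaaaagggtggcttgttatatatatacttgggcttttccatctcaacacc

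Levels of the cell type markers differed between the libraries and are given here beside the histone values. By the test described below, 27.0% of all tested genes were lower in tumor and 31.6% higher. Summed TPM of 25 pan-leukocyte genes was 18474 to 19535 in lung and 918 and 2580 in tumor, and 24 of them were lower. Summed TPM of 20 neutrophil genes was 40405 to 66998 in lung and 1320 and 4349 in tumor, with all 20 lower. Of 18 epithelial genes 16 were higher, summing to 176 to 256 TPM in lung and 7139 and 7194 TPM in tumor. Lymphocyte genes summed to 161 to 335 TPM in lung and 6.05 and 11.4 TPM in tumor, with 8 of 10 tested lower. Macrophage genes summed to 1199 to 1320 and to 1158 and 2727 TPM, with 4 higher and 5 lower of 12. No gene of these lists was at 0 in all libraries. In bulk RNA, fewer cells of a type and less RNA per cell cannot be told apart, and the part of these markers in the histone values was not tested.

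Most histone cluster RNA was lower in the tumor libraries, and most of the gap lay in a few abundant genes. All 70 genes summed to 491, 692 and 457 TPM in lung and 201 and 236 TPM in tumor, 2.50-fold lower. Of these sums, 4 genes (H2ac19, H1f2, H2bc4 and H2ac18) held 78.1% to 82.2% in lung, and 52.6% and 58.9% in tumor. The other 66 genes summed to 100, 123 and 100 TPM in lung and 95.0 and 97.1 TPM in tumor. Tumor lay below lung in both sums, but far apart only for the 4 abundant genes.

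**Figure D1:**
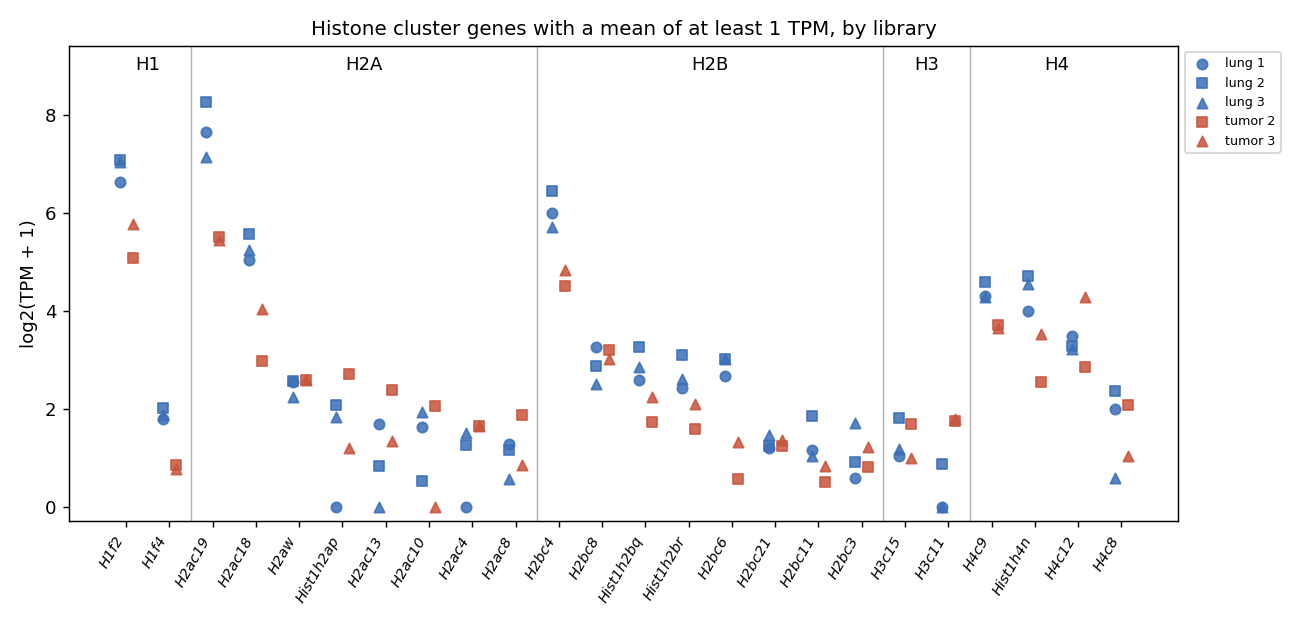
Level of each histone cluster gene with a mean of at least 1 TPM (vertical axis, log2(TPM + 1)) in each library, with genes grouped by family and ordered by mean level. Blue points are the 3 lung and red points the 2 tumor libraries, and the most abundant genes of H1, H2A and H2B have all tumor points below all lung points.

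Testing with limma on log2(TPM + 1) was limited to genes averaging 1 TPM or more across the 5 libraries, and 24 of the 70 genes did. A gene was called when it differed by at least 1.5-fold and its Benjamini-Hochberg adjusted p, over all 16387 genes tested, was under 0.05. Of the 24 genes, 10 were called (58.6% of all tested genes were). In detail, 9 were called lower in tumor (37.5%), where 27.0% of all tested genes were lower. The count higher was 1 (4.17%), where 31.6% of all tested genes were higher. The median difference, tumor minus lung, was -0.21 for the 24 genes and 0.018 for all tested genes. For the histone genes it turned to 0.13 without the filter (64 genes), and was -1.38 for genes of at least 5 TPM (9 genes) and -0.56 without tumor replicate 2. The lower genes were H1f2, H1f4, H2ac18, H2ac19, H2bc4, H2bc6, Hist1h2bq, H4c9 and Hist1h4n, all of which had the opposite sign when libraries were scaled to the pan-leukocyte genes. That scaling moved the median of all genes to 2.93, and the 24 histone genes then had a median of 2.10, which is -0.83 relative to it, with 19 of them called higher and 0 lower (limma, 0 also at an unadjusted p under 0.05), where 70.9% of all tested genes were higher and 2.14% lower. Tumor values lay entirely below lung values for 11 of the 24 genes (35.7% of all tested genes) and entirely above for 3 (39.9%), and overlapped for 10.

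The authors' deposited table holds a p-value for 64 of the 70 genes. Among those 64, the count passing an adjusted p of 0.05 in the authors' deposited table was 0, the smallest being 0.0882 for H1f4, against 0.638% of the 34930 genes with a p-value. At an unadjusted p under 0.05, 10 of the 64 passed in the authors' deposited table, where 23.0% of all genes did. The 10 limma calls came from the 24 genes that passed the filter, so these counts cover unlike sets of genes and unlike limits.

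**Figure D2:**
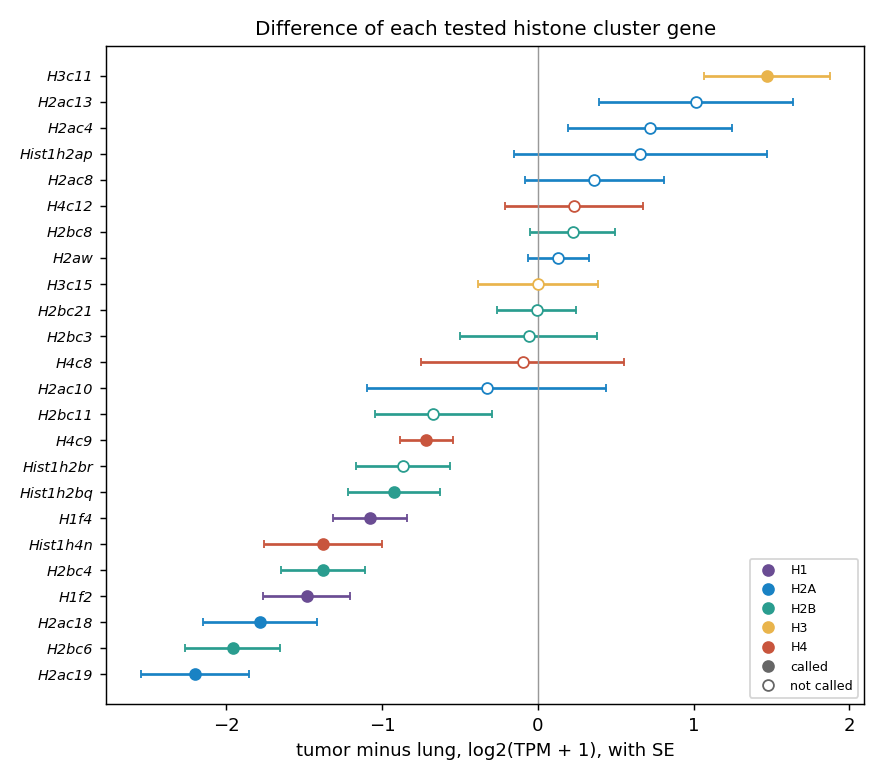
Fitted difference of each of the 24 tested genes (horizontal axis, tumor minus lung in log2(TPM + 1), bars ± SE), coloured by family. Filled points are called: 9 genes lie to the left of 0 and 1, H3c11, to the right.

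Among the H1 genes of the clusters almost all RNA was H1f2, and both tested genes fell, where 27.0% of all tested genes were lower. H1f2 (chromosome 13, 23738808 to 23740367, plus strand, GENCODE M21 on GRCm38) encodes H1.2, one of the main somatic linker histones. It was at 97.3, 134 and 130 TPM in lung and at 32.8 and 53.7 TPM in tumor. Both tumor libraries were below every lung library, a difference of -1.48 ± 0.28 on the log2(TPM + 1) scale (limma, SE, adjusted p = 0.00844, n = 3 and 2), or 2.78-fold in mean TPM. H1f4, which encodes H1.4, was at 2.44, 3.01 and 2.67 TPM in lung and at 0.812 and 0.697 TPM in tumor, also without overlap (-1.08 ± 0.24, adjusted p = 0.0136). The 5 H1 genes other than H1f2 summed to no more than 3.37 TPM in any library. H1f6, the testis linker histone gene, was listed at 0 throughout. H1f5 lay the other way below the filter, at 0.366, 0.209 and 0.188 TPM in lung and at 0.769 and 0.727 TPM in tumor, and did not pass without the filter (adjusted p = 0.0526).

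H2A had the highest sum in every library and 1 gene pair in cluster Hist2 carried it. H2ac19 (chromosome 3, 96239749 to 96240276, minus strand) was the most abundant histone cluster gene, at 200, 303 and 139 TPM in lung and at 44.4 and 42.3 TPM in tumor. The tumor values were close together and below a widely spread lung group (-2.20 ± 0.35, adjusted p = 0.00503). Without tumor replicate 2 the call ended (adjusted p = 0.0519). Its neighbour H2ac18 (chromosome 3, 96245497 to 96246082, plus strand) was at 31.9, 45.9 and 36.9 TPM in lung and at 6.82 and 15.3 TPM in tumor. The groups did not overlap (-1.78 ± 0.37, adjusted p = 0.0111), but the call ended without lung replicate 2 or 3 (adjusted p = 0.0508 and 0.0529).

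How reads were divided between these genes is uncertain. None of the 31-base words in the H2ac19 transcript is unique to that gene, all being shared with the overlapping predicted gene Gm20634, and 10.3% are unique in H2ac18. Gm20634 was itself at 2.13, 2.04 and 2.25 TPM in lung and at 0.971 and 1.15 TPM in tumor (adjusted p = 0.0739). H2ac18 and H2ac19 together summed to 232, 349 and 175 TPM in lung and 51.2 and 57.6 TPM in tumor, 4.63-fold lower, with no overlap. The sum does not depend on the division between the pair, but does on that with Gm20634.

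The other 6 tested H2A genes were not called. H2aw, the Hist3 gene of H2A, was at 4.81, 4.89 and 3.71 TPM in lung and at 4.95 and 4.98 TPM in tumor (0.13 ± 0.20, adjusted p = 0.583). Its tumor values lay just above the highest lung value. H2ac10, H2ac13, H2ac4, H2ac8 and Hist1h2ap stayed at or below 5.55 TPM and had differences from -0.33 to 1.02, with adjusted p-values from 0.210 to 0.727. Such a p does not show that levels were alike, since their SE ran from 0.45 to 0.81.

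Among 8 tested H2B genes, 3 fell and 5 were not called, where 27.0% of all tested genes were lower. H2bc4 (chromosome 13, 23684199 to 23692908, plus strand), whose annotated transcript has 2 exons and no stem-loop, was the most abundant. It was at 62.2, 86.3 and 51.3 TPM in lung and at 21.5 and 27.6 TPM in tumor. Every tumor value was below every lung value (-1.38 ± 0.27, adjusted p = 0.00962), a call lost when tumor replicate 2 was left out (adjusted p = 0.0787). Its divergent neighbour H2ac6, which shares the promoter stretch printed above, had much less RNA, at 0.619, 1.32 and 1.05 TPM in lung and at 0.236 and 0.534 TPM in tumor. H2ac6 was below the filter and its tumor values were also the lower ones.

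H2bc6 fell the most within H2B. It was at 5.34, 7.08 and 7.10 TPM in lung and at 0.480 and 1.48 TPM in tumor (-1.96 ± 0.31, adjusted p = 0.00484), 6.63-fold lower in mean TPM. The annotated span of H2bc6 overlaps that of H1f4 on the same strand. Of the 31-base words of H1f4, 24.5% are shared with H2bc6, and 10.5% of those of H2bc6 with H1f4. The calls of H1f4 and H2bc6 are therefore not fully separate, and both genes passed the filter only through their lung values. H2bc8, with a like mean level in lung, was not called, at 8.61, 6.31 and 4.69 TPM in lung and at 8.17 and 7.06 TPM in tumor (0.22 ± 0.27, adjusted p = 0.502). Its tumor values lay within the lung range.

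Hist1h2bq and Hist1h2br are near-identical spliced genes, and 98.3% of the 31-base words of Hist1h2bq are shared with Hist1h2br. Hist1h2bq was at 4.999, 8.61 and 6.16 TPM in lung and at 2.30 and 3.69 TPM in tumor and passed as lower (-0.92 ± 0.30, adjusted p = 0.0452). That call ended in each of the 5 fits with 1 library left out (adjusted p = 0.0599 to 0.252). Hist1h2br, at 4.33, 7.51 and 5.09 TPM in lung and 2.00 and 3.26 TPM in tumor, just missed the limit (adjusted p = 0.0569). H2bc11, H2bc21 and H2bc3 stayed at or below 2.59 TPM and were not called.

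H3 cluster genes had the lowest sum of the 5 families and were the one family with a higher sum in tumor. All 12 genes summed to 3.95, 6.87 and 2.99 TPM in lung and 10.8 and 8.10 TPM in tumor, without overlap, and this order turned when libraries were scaled to DNA replication genes. H3c11 (chromosome 13, 21782960 to 21783370, minus strand) was listed at 0 in lung replicates 1 and 3 and was at 0.838 TPM in lung replicate 2, against 2.34 and 2.46 TPM in tumor. It was the 1 member called higher (1.47 ± 0.40, adjusted p = 0.0277), and it passed the filter only through its tumor values. The call ended without any one library except lung replicate 2 (adjusted p = 0.0538 to 0.0885) and with a pseudocount of 0.1 (adjusted p = 0.0598), and 6.82% of its 31-base words are unique. H3c15, the other tested H3 gene, was at 1.04, 2.49 and 1.26 TPM in lung and at 2.20 and 1.00 TPM in tumor, with a difference of 0.00 (adjusted p = 0.996).

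H4 genes summed to 48.5, 62.4 and 50.8 TPM in lung and 30.4 and 46.8 TPM in tumor, the smallest gap among the 4 families with a lower sum. H4c9 (chromosome 13, 22040636 to 22041362, minus strand) was at 18.8, 23.0 and 18.5 TPM in lung and at 11.98 and 11.6 TPM in tumor. The groups did not overlap (-0.72 ± 0.17, adjusted p = 0.018), and the call ended without either tumor library (adjusted p = 0.0730 and 0.0718). Hist1h4n was at 14.9, 25.1 and 22.2 TPM in lung and at 4.82 and 10.49 TPM in tumor (-1.38 ± 0.38, adjusted p = 0.0284). Its call ended without lung replicate 2, lung replicate 3 or tumor replicate 2 (adjusted p up to 0.147). H4c12 divided the tumor libraries, at 10.1, 8.70 and 8.27 TPM in lung and at 6.16 and 18.3 TPM in tumor (adjusted p = 0.667). All H4 genes encode nearly the same protein, and 13.8% of the 31-base words of H4c12 are unique.

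**Figure D3:**
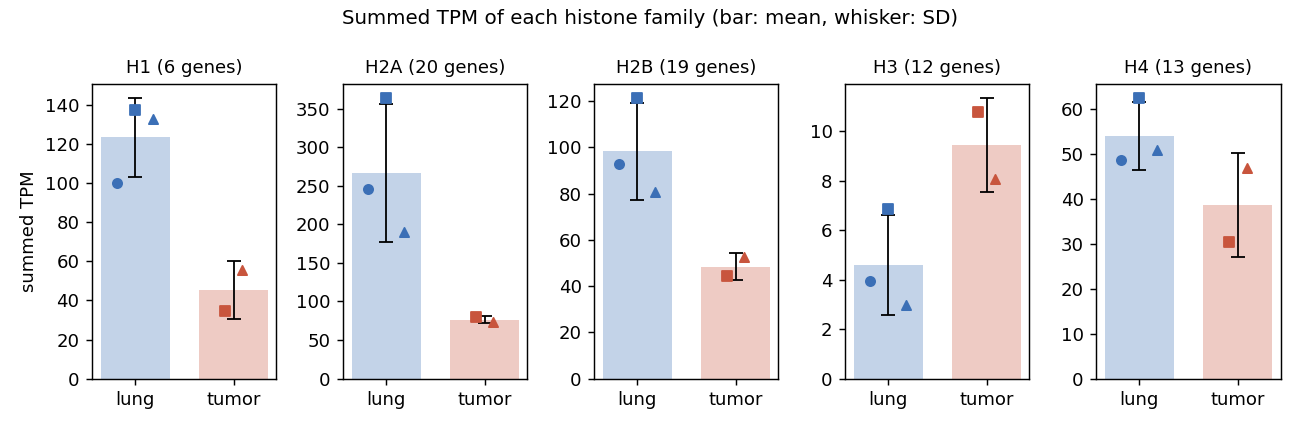
Summed TPM of all genes of each family (vertical axes, one scale per panel) in lung and tumor, with points for libraries, bars for means and whiskers for SD. H1, H2A, H2B and H4 have all tumor points below all lung points, and H3 has both tumor points above.

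The families did not change in step, so the make-up of histone cluster RNA differed between the tissues. Mean summed TPM of H2A was 266 ± 89.1 (SD) in lung and 76.6 ± 5.11 in tumor, 3.48-fold lower. This gap lay in H2ac18 and H2ac19, which summed to 232, 349 and 175 TPM in lung and 51.2 and 57.6 TPM in tumor. Over the 8 tested H2A genes the median difference was 0.25, so the H2A genes did not fall as a group. H1 stood at 123 ± 20.2 and 45.2 ± 14.8, 2.73-fold lower. H2B stood at 98.3 ± 20.9 and 48.4 ± 5.70 (2.03-fold lower) and H4 at 53.9 ± 7.45 and 38.6 ± 11.6 (1.40-fold lower). The sums were given no test, and in each of the 4 families the order turned under the pan-leukocyte scaling. H3 stood at 4.60 ± 2.02 and 9.45 ± 1.92 summed TPM, 2.05-fold higher. As a share of histone cluster TPM, H4 was 9.01% to 11.1% in lung, and 15.2% and 19.8% in tumor. H3 was 0.656% to 0.992% in lung, and 5.39% and 3.43% in tumor. These shares do not change with the scaling of a library, and for both families the tumor shares lay above the lung shares. The H2A share lay below, at 41.5% to 52.6% in lung and at 40.0% and 30.9% in tumor, and the H1 shares overlapped. H2B held 17.5% to 18.9% in lung and 22.1% and 22.2% in tumor.

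**Figure D4:**
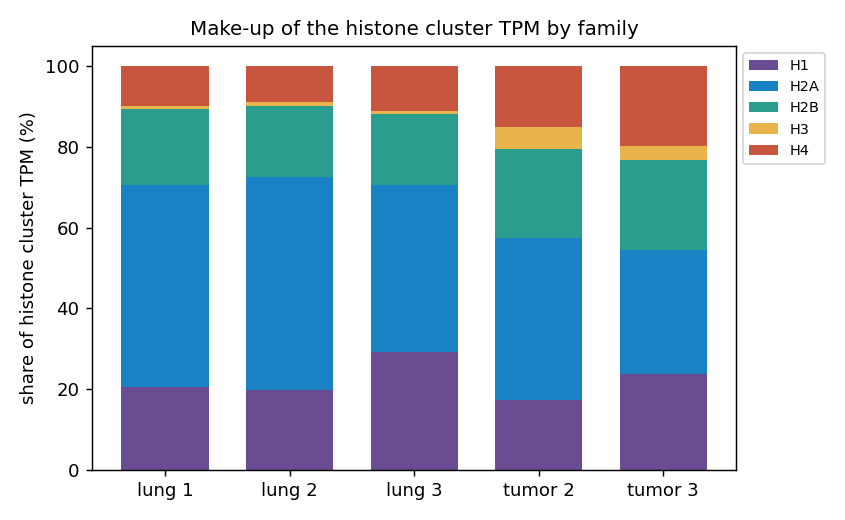
Share of each family in the summed histone cluster TPM of a library (vertical axis, percent) for the 5 libraries. The H4 and H3 segments are wider in both tumor libraries than in the lung libraries, while H2A is the widest segment in all 5.

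Genes of low level summed to more in tumor. The 46 genes with a mean under 1 TPM summed to 12.9, 9.64 and 7.37 TPM in lung and 25.4 and 21.7 TPM in tumor, 2.36-fold higher, with no single value above 2.997 TPM. A mean over 3 lung and 2 tumor libraries keeps more genes that are high in tumor under the limit, so the split was repeated with both groups weighing the same, a choice made after seeing the data. It left 45 genes, 2.28-fold higher in tumor. All genes under 1 TPM summed to 0.691 times as much in tumor as in lung by the first split and 0.602 times by the second. In a fit without the filter, 7 of 64 histone cluster genes were called higher, where 14.5% of all 34930 genes were. Another 7 were called lower, where 12.4% of all genes were. In both directions the histone share was below that of all genes. The higher ones were H2ac11, H2ac15, H2bc7, H3c3, H3c10, H3c11 and H4c2. H2ac15, H2bc7, H3c10, H4c2 and H4c6 were listed at 0 in all lung libraries and had a value above 0 in both tumor libraries, H3c10 at 1.20 and 0.885 TPM and H4c2 at 1.67 and 0.825 TPM. That is 5 of the 64 genes above 0 in any library, where 2.08% of all 34930 such genes had this pattern. The reverse pattern was found for 0 of the 64 and for 2.87% of all such genes. Genes listed at 0 in every library numbered 6, among them H2ac1 and H2bc1, the testis forms of H2A and H2B. TPM keeps no depth, so the number of reads behind these low values is unknown.

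Shares of histone cluster TPM differed between lung and tumor by gene cluster and by transcript form. Hist2 genes held 47.9%, 51.0% and 39.1% of histone cluster TPM in lung, and 27.9% and 25.7% in tumor, while Hist1 genes held 48.2% to 59.95% and then 68.6% and 71.6%. Most of the Hist2 share was that of H2ac18 and H2ac19, at 38.4% to 50.4% in lung, and 25.5% and 24.4% in tumor. Of 19 tested Hist1 genes 7 were lower and 1 higher, and of 4 tested Hist2 genes 2 were lower. Among all tested genes 27.0% were lower and 31.6% higher, and the small groups of this paragraph were not tested against these shares. Genes whose longest annotated transcript stops within 100 bases of the stem-loop, a limit set with the values in view, numbered 22, with 3 of 8 tested lower. Genes with a longer 3′ extension also numbered 22, with 3 of 7 tested lower, H1f2 among them with 840 bases past its stem-loop. Of 5 spliced genes, 4 were tested and 3 were lower. The 21 unspliced genes without a stem-loop held 1.93% to 4.04% of histone cluster TPM in lung, and 13.7% and 11.9% in tumor. Their sums were 13.4 to 19.8 TPM in lung, and 27.5 and 28.1 TPM in tumor. H4c12 alone was at 8.27 to 10.1 TPM in lung, and at 6.16 and 18.3 TPM in tumor. Of 5 tested genes in this group 1 was higher, H3c11, and 4 were not called. The labels do not say whether RNA was captured by its poly(A) tail, and this bears on mRNAs that lack the tail.

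Variant histones are mostly encoded by single genes outside the clusters, with poly(A) mRNAs made also outside S phase, although H2ax makes a stem-loop form as well. Of 12 tested variant genes 7 were higher, 1 lower and 4 not called, with a median of 1.19. Among all tested genes 31.6% were higher and 27.0% lower. H1f0, the linker histone of differentiated and slowly dividing cells, was at 11.4, 9.57 and 9.69 TPM in lung and at 158 and 126 TPM in tumor (3.66 ± 0.18, adjusted p = 0.000901). In tumor H1f0 therefore stood above H1f2, and in lung far below it. H1f10, another linker variant, rose from 0.351 to 4.82 TPM (2.08).

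H3f3a, 1 of the 2 genes of the replacement histone H3.3, fell, at 1064, 1066 and 913 TPM in lung and at 352 and 378 TPM in tumor (-1.47 ± 0.16, adjusted p = 0.00186), with the sign turned under pan-leukocyte scaling. H3f3b, the other, was at 646, 744 and 598 TPM in lung and at 566 and 561 TPM in tumor (-0.23 ± 0.16, adjusted p = 0.274). Each H3.3 gene was above the sum of all 12 H3 cluster genes in every library. H2ax, the H2A variant phosphorylated at DNA breaks, was at 12.5, 14.9 and 9.59 TPM in lung and 34.0 and 28.0 TPM in tumor (1.28 ± 0.23, adjusted p = 0.00778). Cenpa, the centromeric H3, rose from 14.2 to 48.2 TPM (1.68) and H2az1 from 138 to 236 TPM (0.76, adjusted p = 0.0447). Leaving out tumor replicate 2 ended the H2ax call (adjusted p = 0.068), leaving out any library but lung replicate 1 ended that of H2az1, and H2ax, Cenpa and H2az1 turned sign when scaled to the DNA replication genes.

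**Figure D5:**
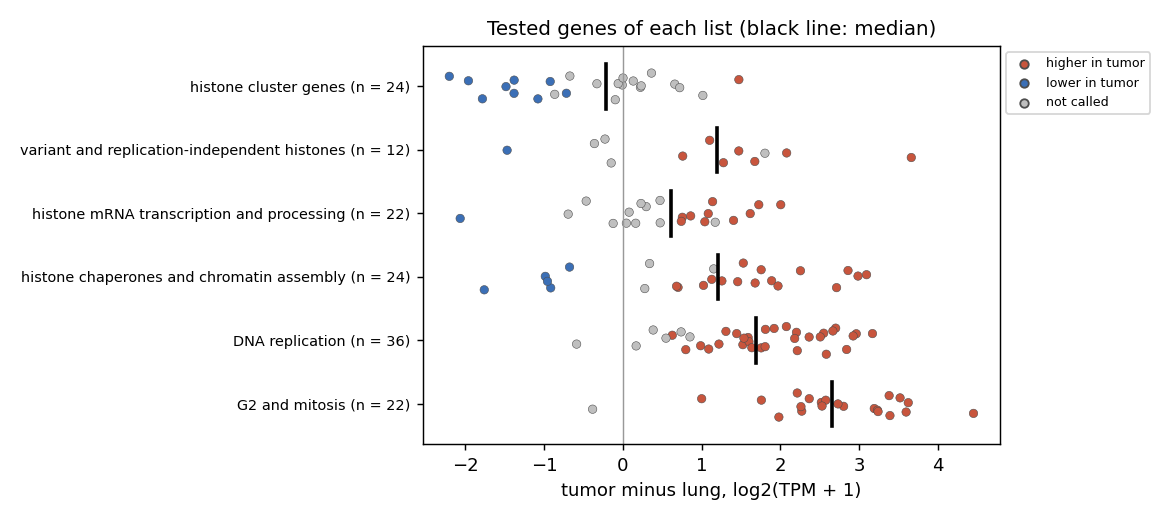
Fitted difference of each tested gene (horizontal axis, tumor minus lung in log2(TPM + 1)) for the histone cluster genes and 5 related gene lists, with the median as a black line and n in each label. The histone cluster genes have a median of -0.21, and the DNA replication and mitosis lists have medians of 1.70 and 2.65.

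The genes that drive and process cluster histone mRNA had a smaller median difference than the genes of DNA synthesis. Of 22 tested transcription and processing genes, 10 were higher and 1 lower, with a median of 0.61 (all tested genes: 31.6% higher, 27.0% lower). Slbp, which encodes the protein that binds the stem-loop, was at 22.4, 33.0 and 26.04 TPM in lung and at 28.3 and 28.5 TPM in tumor (0.08 ± 0.21, adjusted p = 0.752), with both tumor values inside the lung range. Npat was at 1.68, 2.83 and 2.59 TPM in lung and 4.42 and 2.93 TPM in tumor (0.47 ± 0.28, adjusted p = 0.204). E2f1, a transcription factor of the G1 to S transition, rose from 2.83 to 11.7 TPM (1.73). Tut7, a uridylyl transferase that tags histone mRNA for decay, fell from 207 to 49.2 TPM (-2.06), and the signs of E2f1 and Tut7 turned under replication and pan-leukocyte scaling respectively.

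Histone chaperone genes went both ways. Of 24 tested chaperone and assembly genes, 16 were higher and 5 lower, with a median of 1.21 (all tested genes: 31.6% higher, 27.0% lower). Chaf1a and Chaf1b, subunits of the CAF-1 complex that deposits H3 and H4 behind the replication fork, rose from 1.64 to 17.5 TPM (2.86) and from 3.57 to 12.1 TPM (1.53). Asf1b rose from 2.13 to 23.7 TPM (2.99) and Nasp, which holds H3 and H4 reserves, from 9.93 to 25.1 TPM (1.26). Npm1, an abundant nucleolar chaperone, rose from 79.0 to 680 TPM (3.09). The 5 lower genes were Ubn1 (41.9 to 12.1 TPM, -1.76), Daxx (40.0 to 19.6 TPM, -0.98), Hjurp (49.3 to 24.4 TPM, -0.96), Atrx (70.3 to 36.8 TPM, -0.92) and Cabin1 (44.1 to 27.2 TPM, -0.68). Ubn1 and Cabin1 belong to the HIRA complex and Daxx and Atrx act together, both for H3.3, whereas Hjurp loads the centromeric H3. Hira itself rose from 10.2 to 21.5 TPM (1.02). Calls of Asf1b, Hira, Atrx, Hjurp and Cabin1 ended in 1 or more fits with a library left out. The 5 lower genes turned sign under pan-leukocyte scaling, and Chaf1b, Nasp and Hira did under replication scaling.

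S phase and mitosis genes rose while the abundant histone cluster genes fell. Of 36 DNA replication genes 30 were higher and 6 were not called, with a median of 1.70 (all tested genes: 31.6% higher, 27.0% lower). Tyms, which makes thymidylate, was at 2.26, 3.13 and 3.42 TPM in lung and at 35.6 and 32.7 TPM in tumor (3.17 ± 0.20, adjusted p = 0.00101). Rrm1, the large ribonucleotide reductase subunit, rose from 6.16 to 41.6 TPM (2.58) and the DNA ligase gene Lig1 from 4.25 to 28.8 TPM (2.51). Among 22 genes of G2 and mitosis 21 were higher and 1 was not called, with a median of 2.65, including Ccnb1 (2.22 to 38.9 TPM, 3.62) and Top2a (6.65 to 86.4 TPM, 3.52). Scaled to the replication genes, all genes had a median of -1.55 and the 24 histone cluster genes a median of -1.55 as well. Of the 24, 15 were then called lower and 0 higher (limma, 0 also at an unadjusted p under 0.05), where 61.2% of all tested genes were lower and 6.90% higher.

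The 9 genes that carry a Hist symbol in the table itself make a small subset of the 70. They summed to 25.4, 45.0 and 36.5 TPM in lung and 15.03 and 19.6 TPM in tumor, 2.06-fold lower. The tested ones were Hist1h2ap, Hist1h2bq, Hist1h2br and Hist1h4n, of which Hist1h2bq and Hist1h4n were called lower, where 27.0% of all tested genes were. Across all 70 genes the median share of unique 31-base words was 41.3%, 42 genes had under 50% and 11 had under 10%, so values of single genes are less certain than the family sums. H1f2 (88.6% unique), H2bc6 (81.8%), H2bc4 (67.4%), H1f4 (65.3%) and H4c9 (64.7%) were the called genes with most of their sequence to themselves, and all 5 were lower. Not all well-separated genes fell, since H2bc21 (97.2% unique) and H2aw (67.9%) were tested and not called (-0.0071 and 0.13). H1f4 and H2bc6 share part of their sequence with each other. Both averaged under 1 TPM in tumor (0.754 and 0.982 TPM) and so passed the filter only through their lung values. The fits with 1 library left out used that same filter. H1f2, H1f4 and H2bc6 were called lower in each of the 5 fits with 1 library left out.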

How the data were processed

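The authors deposited 1 table of TPM for 5 libraries, quantified with Salmon 0.9.1 against GENCODE mouse M24, per the series' design text, and their own p-values. The labels give 20000000 paired reads per library. TPM keeps no depth, so no counting error or floor could be given. Reads that match several transcripts are shared out by Salmon's model. Of 55276 rows, 26 with spreadsheet dates as symbols were left out, and 20320 were 0 in every library. The authors' deposited p-values and adjusted p-values were only described.

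The test was limma (version 3.58.1, R 4.3.3; empirical Bayes with intensity trend, two-sided) on log2(TPM + 1), a scale that understates the change of low genes. It covered the 16387 genes averaging 1 TPM or more. Folds are ratios of mean TPM. The smallest exact permutation p in a 3 against 2 design is 0.1. The fit was tested on simulated data with the spread and levels of these libraries. It called 4 of 50 genes changed by 1 log2 unit, 25 of 50 changed by 2, 41 of 50 by 4 and 40 of 50 by 6. There were 10 false calls among the unchanged genes of the 16387 simulated. A gene not called may therefore still differ. Far fewer genes changed in the simulation than were called in the data, so these rates need not hold here. The labels do not say that libraries came from separate animals.

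Family sums and shares were given no test. Coordinates and transcripts are GENCODE M21 on GRCm38, and promoters RefSeq GRCm38.p6. Members were matched by symbol, 9 directly and 61 through RefSeq synonyms. A 31-base word was unique if found in no other gene's transcripts, and M24 transcripts were not used here.

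Members and lists were chosen with earlier results of these data known. Named members are up to 3 per family with the highest mean TPM, up to 2 with the largest rise and fall, and any called against its family. Named list genes are up to 4 with the smallest p, plus Slbp, Npat, H2ax, H2az1, H3f3a, H3f3b and H1f0. Some of these are left out. The other members named, and Chaf1a, Chaf1b, Asf1b, Nasp, Hira, Ubn1, Daxx, Hjurp, Atrx and Cabin1, were chosen after their values were seen. Alternatives changed the pseudocount, filter, fold limit, scaling and fit, or left out 1 library.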

Additional observations from a re-analysis of the deposited data

How the results depend on the processing

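The 1 gene called higher became 0 with a pseudocount of 0.1 or 0.01 and after centring on the median gene. In each of these, limma gave 0 or 1 at an unadjusted p under 0.05. Among genes of at least 5 TPM the count was also 0 (limma, 0 also unadjusted), but H3c11, with a mean of 1.13 TPM, was not tested there. Without the filter 7 of 64 were called higher, where 14.5% of all genes were. The median difference was 0.13 with no filter and -1.38 for genes of at least 5 TPM. Leaving out 1 library gave 0 to 1 genes higher, 4 to 8 lower, a median of -0.56 to -0.25 and 6285 to 8848 calls among all genes, with the lowest 4 and 6285 without tumor replicate 2. Without a tumor library the remaining one is assumed to vary like the lung group. The log2 ratios of family sums, tumor over lung, kept their sign without any one library and ran from -0.83 to -0.20 for H4.

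Scaled to DNA replication genes, 0 genes were higher (limma, 0 also unadjusted) and 15 lower, where 6.90% of all genes were higher and 61.2% lower, with a median of -1.55. The log2 ratios of sums were then -3.49 for H1, -3.91 for H2A, -3.10 for H2B, -1.10 for H3 and -2.53 for H4. The sign turned for H2aw (-1.51), H2bc8 (-1.54), H4c12 (-1.57), Slbp (-1.89), Npat (-1.01), H2ax (-0.67), H2az1 (-1.28), Cenpa (-0.30), E2f1 (-0.0074), Chaf1b (-0.24), Nasp (-0.67), Hira (-0.89) and Hmgb1 (-1.02). Scaled to pan-leukocyte genes, 19 were higher and 0 lower (limma, 0 also unadjusted), where 70.9% of all genes were higher and 2.14% lower, with a median of 2.10 and log2 ratios of sums of 2.03 for H1, 1.89 for H2A, 2.57 for H2B, 4.79 for H3 and 3.02 for H4. The sign turned for H1f2 (1.93), H1f4 (1.08), H2ac18 (1.51), H2ac19 (1.22), H2bc21 (2.21), H2bc3 (1.86), H2bc4 (2.00), H2bc6 (0.39), Hist1h2bq (1.94), Hist1h2br (1.92), H4c8 (2.30), H4c9 (2.55), Hist1h4n (1.82), H3f3a (1.99), H3f3b (3.23), Tut7 (1.36), Ubn1 (1.55), Cabin1 (2.69), Daxx (2.37), Atrx (2.48), Hjurp (2.41), Padi4 (1.77), Lmnb1 (0.56) and Gsdmd (1.26). These scalings moved the median of all genes to -1.55 and 2.93. The cause of these changes was not tested.

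The labels do not say whether the title numbers pair the libraries. Deviations of same-numbered lung and tumor libraries from their group means correlated at 0.0034 and 0.083. With 2 tumor libraries these deviations mirror each other, so the correlations cannot decide whether the title number pairs the libraries. In a fit with that number as a replicate block, 1 gene was higher, H2ac13, and 3 were lower, H1f2, H2ac19 and H2bc6, and 7111 of all genes were called. TPM without depth limits what the low genes can show.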

Other observations

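The list of histone citrullination and neutrophil chromatin release held 7 genes, of which 5 passed the filter on low values. Of these 5 tested genes 3 were lower and 1 higher, with a median difference of -1.63. Among all tested genes 27.0% were lower and 31.6% higher. Padi4, the enzyme that converts histone arginines to citrulline in neutrophils, fell from 90.5 ± 8.06 to 28.4 ± 0.884 TPM (-1.63 ± 0.15, limma adjusted p = 0.00151). Lmnb1, which encodes the nuclear envelope protein lamin B1, fell from 346 ± 54.8 to 47.6 ± 17.2 TPM (-2.87 ± 0.28, adjusted p = 0.00166). Gsdmd, the pore-forming gasdermin D, was also lower (-2.11) and Hmgb1, a chromatin protein that leaves damaged cells, higher (1.03). Padi4 is also in the neutrophil marker list. The signs of Padi4, Lmnb1 and Gsdmd turned under pan-leukocyte scaling and that of Hmgb1 under replication scaling.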
